A study of Mus musculus with 2 samples.

Results

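The microRNA genes Mir23a, Mir27a and Mir24-2 lie side by side on mouse chromosome 8, and Mir23b and Mir27b lie side by side on chromosome 13. These 5 genes were chosen by their names, as the genes of the miR-23, miR-27 and miR-24 clusters that have a row of their own, out of 1973 microRNA genes counted. Small RNA of whole kidney tissue from newborn B6NCrl mice, taken on postnatal day 0, was sequenced in 2 samples, each made from the 2 kidneys of 1 pup. Per the labels both pups came from the same pregnancy and sex was not collected, and no treatment or altered gene is named. The samples are thus 2 replicates of 1 group. Levels are read counts on the strand of the gene, scaled to CPM (counts per 1000000 counts on all named genes of the library). These totals were 3846704 counts in pup 2 and 5832192 counts in pup 1. Whole tissue was read, so fewer cells of a type and less RNA per cell cannot be told apart.

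A microRNA cluster is copied into a long primary transcript, from which the Drosha enzyme cuts the hairpins and Dicer then releases short duplexes. The strand kept by an Argonaute protein pairs with messenger RNAs mainly through its seed, the bases near its 5′ end, and lowers their output. The paralogous clusters studied here occur across vertebrates and are known from blood vessel growth. In endothelial cells miR-23 and miR-27 repress the angiogenesis inhibitors Sprouty2 and Sema6a, while miR-24 represses Gata2 and Pak4 and limits vessel growth. Elsewhere miR-23 is known as a repressor of glutaminase, miR-27 of the adipocyte regulator Pparg, and miR-24 of the cell death protein Bim.

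The main known products of these hairpins are the 3p arms miR-23a-3p, miR-23b-3p, miR-27a-3p, miR-27b-3p and miR-24-3p. Their letters decide which reads can be given to a single gene. No sequence of miR-23b-3p was at hand, so it was not searched for in the hairpins. The other 3p arms are shown first, from RefSeq (GRCm38.p6), 5′ to 3′, with the seed (bases 2 to 8) in capitals.
miR-23a-3p: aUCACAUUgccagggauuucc
miR-27a-3p: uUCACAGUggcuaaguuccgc
miR-27b-3p: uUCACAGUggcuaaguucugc
miR-24-3p, of Mir24-2 and of Mir24-1: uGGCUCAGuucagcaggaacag
miR-27a-3p and miR-27b-3p share their seed and differ by 1 substitution, C19U, counted from the 5′ end with the base of miR-27a-3p first. The seed of miR-23a-3p differs from that of miR-27a-3p by U7G alone. miR-24-3p is the same 22 bases from both loci.

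Where reads of these arms can be placed follows from the hairpins. The whole of miR-23a-3p, miR-27a-3p and miR-27b-3p was found in 1 microRNA hairpin each of GENCODE release M21, while miR-24-3p was found in both Mir24-1 and Mir24-2. The first 18 bases of miR-23a-3p stand in both miR-23 hairpins, and those of miR-27a-3p in both miR-27 hairpins, so a read cut short at its 3′ end matches both genes. The hairpins of Mir23a and Mir23b share a run of 20 bases, and so do those of Mir27a and Mir27b. Below, the run of 28 bases shared by the miR-24 hairpins is in capitals, since any read inside it matches both places.
Mir24-2: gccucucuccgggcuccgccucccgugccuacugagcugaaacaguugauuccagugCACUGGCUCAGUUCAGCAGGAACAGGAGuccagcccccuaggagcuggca
Mir24-1: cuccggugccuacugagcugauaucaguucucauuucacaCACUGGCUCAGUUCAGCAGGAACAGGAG
The 5p arms of both hairpins are shown with the seed in capitals. They share that seed and their first 16 bases and then part.
miR-24-2-5p: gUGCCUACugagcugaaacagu
miR-24-1-5p: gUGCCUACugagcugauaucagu
Multimapping reads, 31.0% of reads in pup 2 and 30.3% in pup 1, are listed apart and enter no gene's count. The level of Mir24-2 therefore leaves out reads that matched both loci, and is no measure of miR-24-3p.

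On mm10, Mir23a (ENSMUSG00000065611.1, chr8:84208518-84208592), Mir27a (ENSMUSG00000065444.1, chr8:84208672-84208758) and Mir24-2 (ENSMUSG00000065541.1, chr8:84208815-84208921) follow each other on the plus strand within 404 bases. Mir27a starts 79 bases after Mir23a ends, and Mir24-2 starts 56 bases after Mir27a ends. No protein-coding gene of release M21 covers this cluster, and the last 2 bases of Mir24-2 fall in an exon of the long non-coding RNA gene Gm26532. Mir23b (ENSMUSG00000065599, chr13:63300484-63300557) and Mir27b (ENSMUSG00000065475, chr13:63300712-63300784) lie on the plus strand with 154 bases between them, inside 2010111I01Rik, the gene RefSeq names Aopep, which encodes an aminopeptidase. Mir23b lies in an intron of that gene, while some transcript has an exon over all 73 bases of Mir27b. Mir24-1 (chr13:63301208-63301275) follows 423 bases further on, in an exon of some transcript of the same gene. No row of the tables used here is its own. Minus-strand genes meet the miR-24 hairpins at both loci, Mir3074-2 at Mir24-2 and Mir3074-1 at Mir24-1. The protein-coding gene Fancc, of a DNA repair complex, also runs over Mir23b, Mir27b and Mir24-1 on the minus strand, with introns there.

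**Figure D1:**
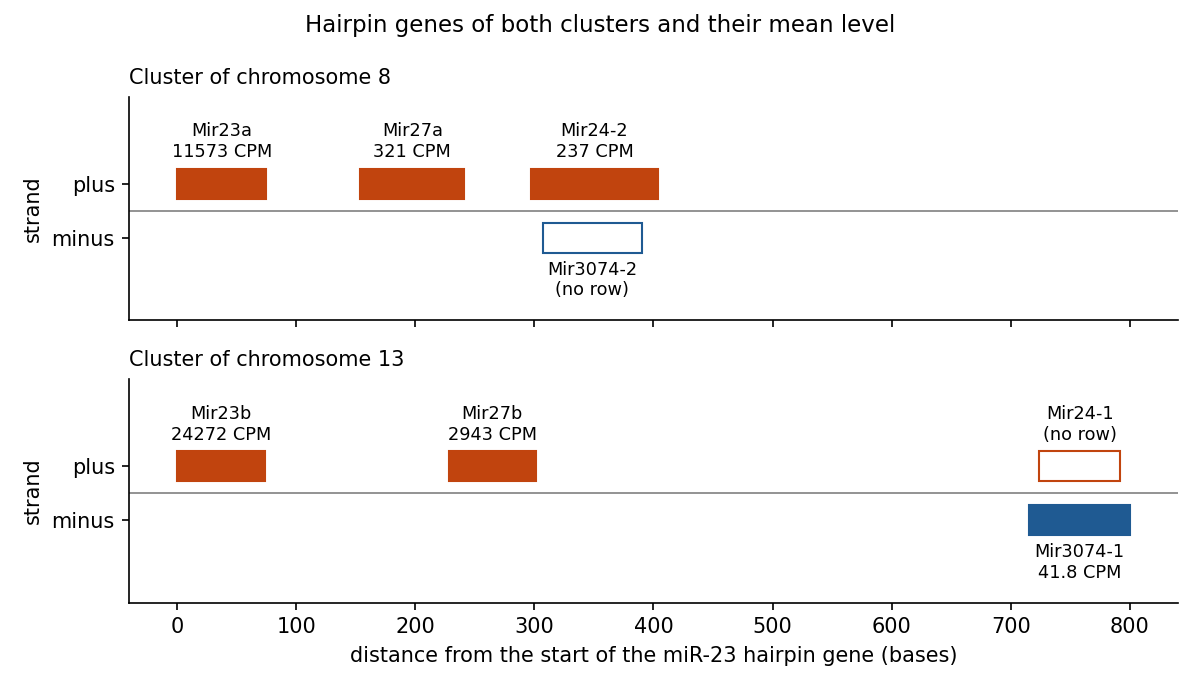
Hairpin genes of both clusters, drawn to scale by distance in bases from the start of the miR-23 hairpin gene, with plus-strand genes above the line and minus-strand genes below it. Numbers are the mean CPM of 2 pups, and open boxes are genes without a row in the tables used here. At both loci the level drops after the first hairpin, to 321 CPM in Mir27a after 11573 CPM in Mir23a, and to 2943 CPM in Mir27b after 24272 CPM in Mir23b.

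Together the 5 genes took 3.98% of the counts of pup 2, with a 95% Wilson interval of 3.96 to 4.00, and 3.89% of those of pup 1, with an interval of 3.87 to 3.90. The mean was 3.93% ± 0.0664 (SD, n = 2). Intervals here reflect counting error alone and treat each read as independent. Several reads can stem from 1 molecule, so the intervals may be too narrow even for that. The chromosome 13 genes supplied 2.72% ± 0.0121 of counts and the chromosome 8 genes 1.21% ± 0.0542. By family, the miR-23 genes gave 3.58% ± 0.0419 and the miR-27 genes 0.326% ± 0.0227. Mir23b alone made up 61.7% ± 1.21 of the counts of the 5 genes and Mir23a 29.4% ± 0.737, while Mir27b made up 7.48% ± 0.350, Mir27a 0.814% ± 0.0863 and Mir24-2 0.603% ± 0.0344. Reads that match more than 1 gene, those of miR-24-3p among them, enter none of these counts, and Mir24-1 has no row. The shares therefore do not give the make-up of all products of the clusters.

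Mir23b was the most abundant of the 5, with 93190 counts (24226 CPM) in pup 2 and 141833 counts (24319 CPM) in pup 1. Their Wilson intervals, 24073 to 24380 CPM in pup 2 and 24194 to 24444 CPM in pup 1, overlap. It ranked 13 among all microRNA genes, below Mir99a (25516 ± 3323 CPM), from which it was not resolved, and above Mir196b (22510 ± 1054 CPM), which was lower in both pups. Its paralog Mir23a had 45836 counts (11916 CPM) in pup 2 and 65492 counts (11229 CPM) in pup 1, with intervals of 11808 to 12025 and 11144 to 11315 CPM that do not overlap. It ranked 21, beside Mir22 (11665 ± 168 CPM), which was closer than the spread between the pups, and above Mir99b (9421 ± 544 CPM), which was lower in both.

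The miR-27 genes stood below their miR-23 neighbours at both loci. Mir27b had 11829 counts (3075 CPM) in pup 2 and 16390 counts (2810 CPM) in pup 1. It ranked 43, between Mir140 (3170 ± 38.9 CPM) and Mir351 (2904 ± 238 CPM), of which only Mir140 was set apart from it in both pups and by more than the SD of either gene. Mir27a had 1340 counts (348 CPM, interval 330 to 368) in pup 2 and 1707 counts (293 CPM, 279 to 307) in pup 1. Its rank of 113 was not resolved from its neighbours Mir431 (321 ± 64.2 CPM) and Mir382 (316 ± 1.54 CPM).

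Mir24-2 was the lowest of the 5, with 960 counts (250 CPM, interval 234 to 266) in pup 2 and 1311 counts (225 CPM, 213 to 237) in pup 1. These intervals overlap, and its rank of 130 was not resolved from Mir31 (241 ± 7.13 CPM) or Mir874 (234 ± 5.00 CPM). Reads that match both miR-24 loci are left out of that value. In both pups the order of the 5 genes was Mir23b, Mir23a, Mir27b, Mir27a and Mir24-2. Each step in it exceeded the SDs of both its genes, the smallest being that between Mir27a (321 ± 39.4 CPM) and Mir24-2 (237 ± 17.5 CPM). Levels of different genes are compared as numbers of reads, and the yield of reads per molecule was not measured.

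**Figure D2:**
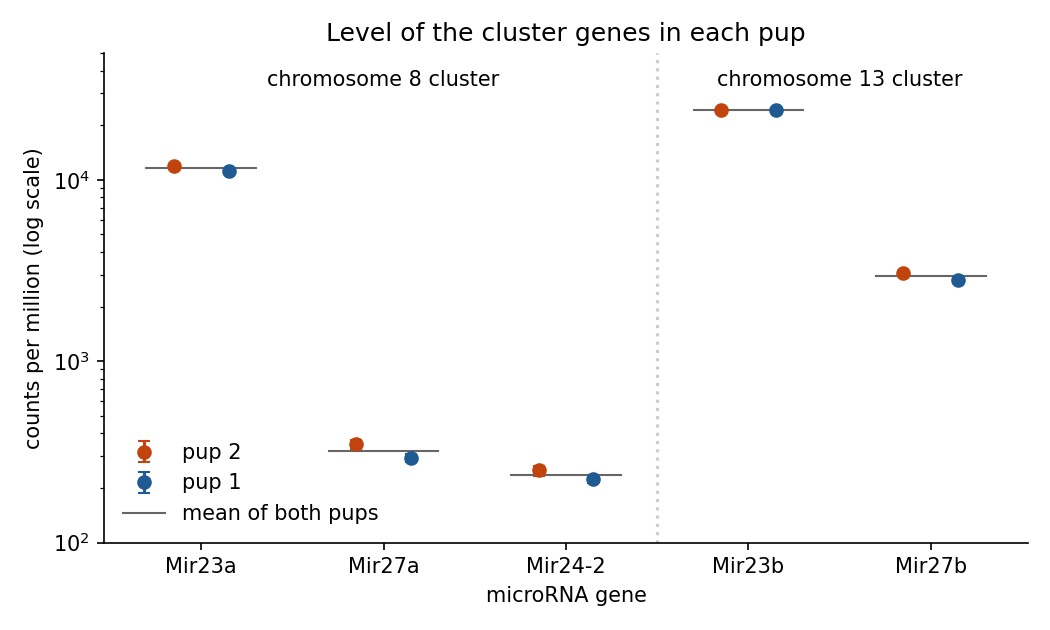
Level of each cluster gene in pup 2 and pup 1, in CPM on a log axis. Points are single libraries with 95% Wilson counting intervals, mostly smaller than the points, and grey lines are means of both pups. The pups lie close together at every gene, while the genes range from 24272 CPM in Mir23b down to 237 CPM in Mir24-2, with Mir27a and Mir24-2 near each other. The level of Mir24-2 leaves out the reads shared by the miR-24 loci.

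Ratios between genes within a library need no scaling and were compared next. They use only reads placed at a single gene, so reads cut short that match both paralogs are left out. Mir23a exceeded Mir27a 34.2-fold in pup 2 (exact 95% counting interval 32.4 to 36.1) and 38.4-fold in pup 1 (36.6 to 40.3). On chromosome 13 the same ratio was smaller, with Mir23b above Mir27b 7.88-fold in pup 2 (7.73 to 8.03) and 8.65-fold in pup 1 (8.51 to 8.80). The miR-23 to miR-27 ratio of chromosome 8 was thus 4.34 times that of chromosome 13 in pup 2 and 4.43 times in pup 1. The gap between the ratios, 36.3 ± 2.94 on chromosome 8 and 8.27 ± 0.548 on chromosome 13, is larger than either SD, and their counting intervals do not overlap in either pup.

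Between paralogs, the chromosome 13 copy was the higher at both families. Mir23b stood 2.03-fold above Mir23a in pup 2 (2.01 to 2.06) and 2.17-fold in pup 1 (2.15 to 2.19). Mir27b stood 8.83-fold above Mir27a in pup 2 (8.34 to 9.35) and 9.60-fold in pup 1 (9.13 to 10.1). In these counts the miR-27 paralogs were therefore further apart than the miR-23 paralogs, with means of 9.21 ± 0.547 and 2.10 ± 0.0937. Reads too short to tell the paralogs apart are left out, and how many there were at each family was not measured. At the end of the chromosome 8 cluster, Mir24-2 had 0.716 of the counts of Mir27a in pup 2 (0.659 to 0.779) and 0.768 in pup 1 (0.714 to 0.826). Mir23a had 47.7 times the counts of Mir24-2 in pup 2 and 50.0 times in pup 1, again with the reads shared by the miR-24 loci left out.

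Unequal levels were common among the pairs of neighbouring microRNA genes compared here. Among 308 pairs of microRNA genes on the same strand with starts within 10 kb and a mean count of at least 10, formed by 144 genes, the absolute log2 ratio of levels had a median of 2.49 and a 90th percentile of 6.17. Mir23b and Mir27b, at 3.04, were near the middle, with 56.8% of pairs closer together. Mir23a and Mir27a, at 5.17, were further apart than 78.6% of pairs, and Mir23a and Mir24-2, at 5.61, further than 83.4%. Mir27a and Mir24-2 differed by 0.43, and 8.12% of pairs were closer. Both values with Mir24-2 leave out the reads shared by the miR-24 loci. Pairs share genes with each other, so these shares describe the tables and are no test. Every pair within the distance was taken, so clusters of many genes weigh more than small ones. Neighbours were also compared in how far the pups differed. The log2 ratios of pup 2 over pup 1 were 0.07 to 0.17 apart within the 4 pairs of cluster genes. At the median of all 308 pairs they were 0.18 apart. Those pairs reach down to mean counts of 10, where counting error is larger than at the 960 counts or more of each cluster gene. The values therefore do not show that neighbours in a cluster vary together.

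**Figure D3:**
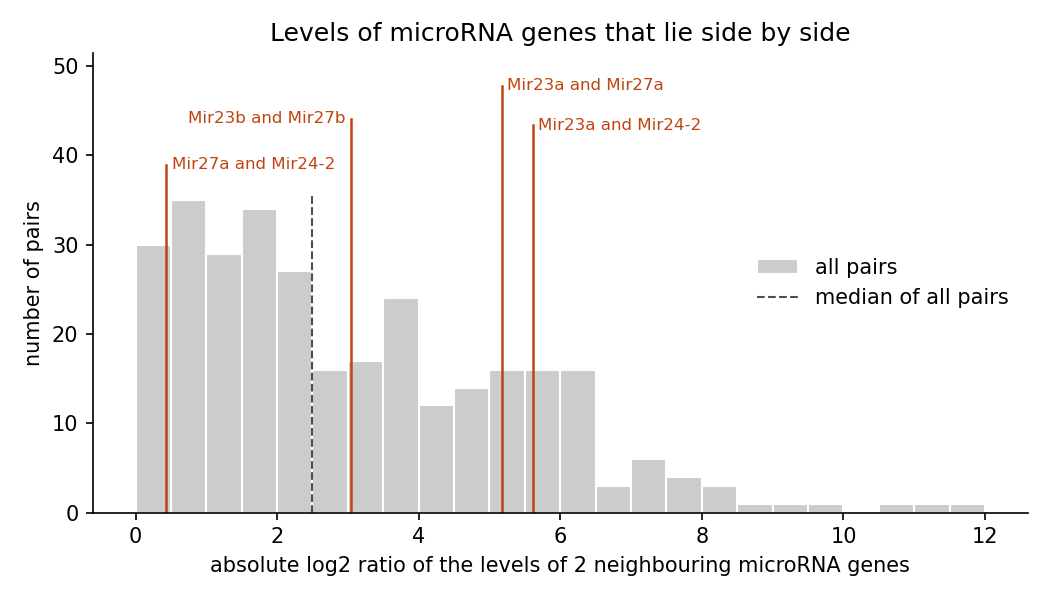
Absolute log2 ratio of mean levels for 308 pairs of same-strand microRNA genes with starts within 10 kb. Grey bars count pairs, the dashed line is their median of 2.49, and red lines mark pairs of cluster genes. Mir27a and Mir24-2 lie near 0, Mir23b and Mir27b just above the median, and both pairs with Mir23a in the upper part at 5.17 and 5.61. Pairs with Mir24-2 leave out the reads shared by the miR-24 loci.

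Near the miR-24 hairpin of chromosome 13, reads were counted on both strands. On the strand of Mir3074-1, the minus strand, there were 159 counts in pup 2 and 247 in pup 1, a level of 41.8 ± 0.719 CPM, and that hairpin too shares a stretch of 22 bases with another. Opposite to that gene, on the strand of Mir24-1, there were 145 reads in pup 2 and 222 in pup 1, or 37.9 ± 0.262 CPM. Mir24-2 thus had 6.62 times as many single-place reads as the strand of Mir24-1 in pup 2 (exact interval 5.55 to 7.94) and 5.91 times in pup 1 (5.12 to 6.84). The stretches counted differ, with 107 bases for Mir24-2 and the 85 bases of Mir3074-1 for the other side. Reads of miR-24-3p that match both loci are left out of both sides, so this is no ratio of miR-24-3p between the loci. At the chromosome 8 hairpin, reads opposite to Mir24-2, where Mir3074-2 lies, numbered 0 in pup 2, which allows up to 0.780 CPM for reads that match this place alone, and 3 in pup 1. The other 4 cluster genes had 0 opposite reads in both pups. Other microRNAs that RefSeq lists with the seed of miR-24-3p are miR-6413, miR-6410, miR-6369 and miR-5124b, and their genes Mir6413, Mir6410, Mir6369 and Mir5124b had 0 counts in both pups.

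The comparison of the pups was the only contrast the design allows. It sets 1 library against another and not conditions, and its exact two-sided binomial test with Benjamini-Hochberg adjustment over 324 genes knows counting error only. After TMM scaling, the log2 ratio of pup 2 over pup 1 was 0.23 for Mir27a, which was higher in pup 2 (95% counting interval 0.13 to 0.33, adjusted p = 7.8e-05 by that exact test). Mir27b was higher by 0.11 (0.07 to 0.14, exact adjusted p = 3.1e-09) and Mir23a by 0.06 (0.05 to 0.08, exact adjusted p = 1.7e-12). Mir23b had -0.03 (-0.04 to -0.01, exact adjusted p = 7e-05) and Mir24-2 0.13 (0.01 to 0.25, exact adjusted p = 0.099). So 4 of 5 genes passed, 3 of them higher and 1 lower in pup 2, where 33.6% of all tested genes passed, 12.7% as higher and 21.0% as lower. This test passes smaller ratios at higher counts, and the tested genes reach down to mean counts of 10. The shares are thus not of genes of like count, and do not show that the cluster genes differ more.

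Set beside all genes, the ratio of Mir27a was larger in absolute size than 69.8% of those tested, and that of Mir23b larger than 10.8%. The median log2 ratio was 0.11 over the 5 genes and -0.04 over all genes tested, and the median absolute log2 ratio was 0.11 over the 5, 0.15 over all and 0.09 over the 74 genes at 1000 CPM or more, which include Mir23b, Mir23a and Mir27b. The call for Mir23b rests on the scaling, since its log2 ratio was -0.01 with library totals and did not pass, while Mir24-2, at 0.15, then passed. With the dispersion of the pups in an edgeR exact test, 0 of the 5 genes passed, where 0.309% of all tested genes did. At an unadjusted p under 0.05, that test called 0 of the 5 and 4.32% of all tested genes. That dispersion, a biological coefficient of variation of 9.29%, comes from the same difference between the pups and is no independent check.

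**Figure D4:**
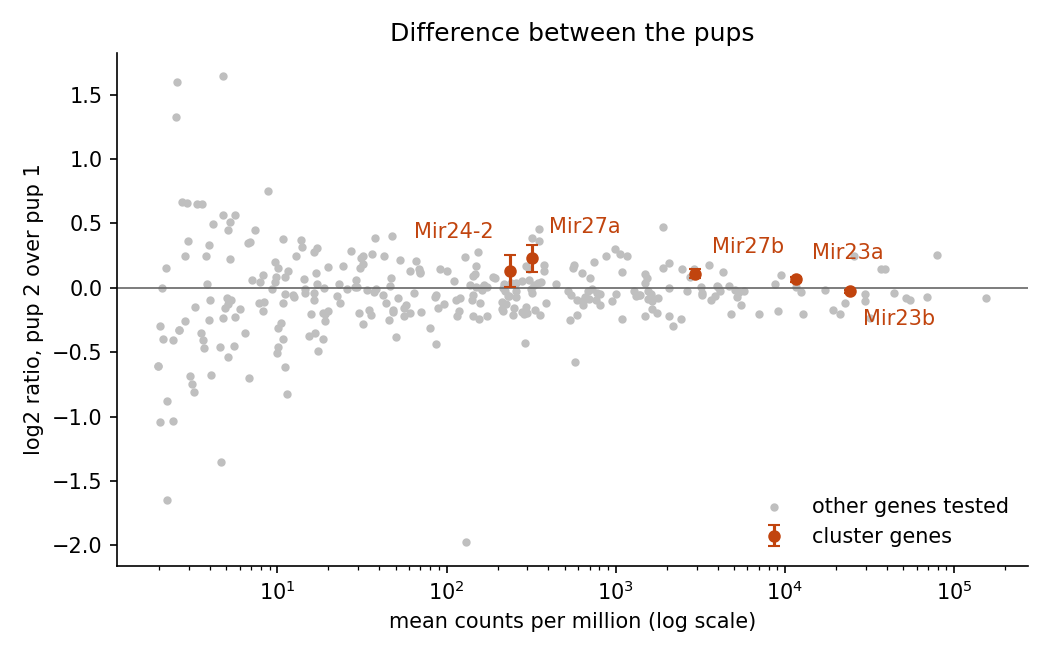
Log2 ratio of pup 2 over pup 1 after TMM scaling against mean CPM on a log axis, for the 5 cluster genes (red, with 95% counting intervals) and the 319 other genes tested (grey). The cluster genes lie between -0.03 at Mir23b and 0.23 at Mir27a, inside the spread of other genes of like level.

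Markers of the cell types in the tissue were set beside these values. All 3 endothelial genes were above 10 CPM, summing to 88098 CPM in pup 2 and 72891 in pup 1, nearly all from Mir126a, known from endothelium, whose log2 ratio was 0.26. Mesenchymal and smooth muscle genes (5 of 6 above 10 CPM in both pups) summed to 44552 CPM in pup 2 and 40300 in pup 1. Epithelial miR-200 genes (5 of 5) summed to 31660 and 31551 CPM in pup 2 and pup 1, and kidney tubule genes (4 of 6), led by Mir30a, to 21049 and 23607 CPM. No gene of these 4 lists was at 0 in both pups. Over all tested genes 12.7% passed the exact binomial test as higher in pup 2 and 21.0% as lower. Within the endothelial list 1 of 3 genes passed it as higher and 1 as lower, with a median log2 ratio of -0.02. Within the mesenchymal list 2 of 6 passed as higher and 1 as lower, with a median of -0.09. The endothelial and mesenchymal sums were thus higher in pup 2 while the median member of each list was not. Of 5 epithelial genes 1 passed as higher and 2 as lower, with a median of -0.06. Of 6 kidney tubule genes 2 passed as higher and 2 as lower, with a median of -0.18. Whether the cell types have a part in the differences at Mir27a, Mir27b and Mir23a was not tested. Markers from outside the kidney were low, with blood genes at 405 CPM in pup 2 and 589 in pup 1 and the liver gene Mir122 at 44.2 and 56.9 CPM. The red blood cell gene Mir451a had a log2 ratio of pup 2 over pup 1 of -1.98, larger in absolute size than 99.7% of tested genes. It was the gene that passed the edgeR exact test (adjusted p = 9.1e-17). The other blood genes did not all go that way. Of the 4 blood genes 1 passed the exact binomial test as higher in pup 2 and 2 as lower, with a median log2 ratio of -0.20. Striated muscle genes summed to 8.84 CPM in pup 2 and 8.92 in pup 1, with Mir133a-1, Mir133a-2, Mir133b and Mir1a-1 at 0 counts. Neural genes summed to 19.8 and 17.7 CPM, with Mir124a-1, Mir124a-2 and Mir124a-3 at 0 counts. Genes with an identical mature copy elsewhere, such as those of Mir124a, can lose their reads to the multimapping class, so a count of 0 sets no limit for them.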

How the data were processed

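Small RNA of newborn kidney was sequenced in 2 pups of 1 group. The authors' files give raw read counts for each gene on assembly mm10 and annotation M4, per the notes deposited with them. No aligner or filter is named in the sources used here. Of 3 count columns without a header, that for the gene's own strand was used, and which it is was read from the values. Arms of a hairpin are not separated. Rows that name no gene were left out of totals: multimapping reads as given above, unmapped reads (8.69% in pup 2, 8.52% in pup 1) and reads on no gene (2.92% and 2.91%).

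Identifiers were matched without version to GENCODE M21 (1894 of 1973), where Mir23b, Mir27b and Mir3074-1 have a later version than in the tables. Levels are CPM with mean ± SD. Intervals are Wilson for shares and exact for ratios of counts, and a count of 0 allows up to 3 counts. Pups were compared by an exact binomial test (scipy 1.17.1) across genes averaging at least 10 counts, with TMM sizes of edgeR 4.0.16, a prior count of 0.5 and Benjamini-Hochberg adjustment. The test was tried on simulated counts with known changes and counting error alone. That setting has no spread between pups, so it does not show how the test fares with such spread. DESeq2 1.42.0 gave size factors for an alternative. Genes named are the 5 members, other genes at their loci, their neighbours in rank, genes with a shared seed and marker lists. Members, lists and tests were chosen with earlier results of these data known. Errors are the spread between these 2 samples.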

Additional observations from a re-analysis of the deposited data

Results flagged for a closer look

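Reads opposite to Mir3074-1, on the strand of Mir24-1, are not part of the own-strand counts that all levels use. They numbered 145 in pup 2 and 222 in pup 1, above the limit that a count of 0 allows.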

How the results depend on the processing

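The 6 ratios between cluster genes moved by less than the SD of the pups with counts on either strand. With a pup left out, the joint share of 3.93% became that of the other pup, 3.89% or 3.98%, so this setting is no check. The share was 3.85% with counts on either strand, 4.65% without Mir10a in the total and 2.27% with every row of the table in the total. These shifts follow from the larger or smaller total. Levels moved by more than the SD of the pups in 11 cases, each under these 3 settings, and by less under TMM and DESeq2 scaling. With reads opposite to Mir3074-1 added, the share was 3.94%. Between the pups, 109 genes passed the exact binomial test, 93 to 110 under other scalings, count minimums and strands, and 1 by the edgeR exact test. Without Mir451a and Mir126a in the totals, which was tried after seeing the data, the log2 ratio of Mir23b turned to 0.02. With full library totals it was -0.01, and this shift follows from the changed totals. The cause of the differences between the pups was not tested. Among neighbouring pairs the median of 2.49 was 2.05 to 2.46 under other limits. One of these, chosen after seeing the data, left out hairpins sharing 22 bases and so the pairs with Mir24-2. The places of the cluster pairs rose with a mean count of at least 100, least for Mir27a and Mir24-2. Mir23a and Mir24-2 were then further apart than 91.7% of pairs, Mir23a and Mir27a than 87.9%, and Mir23b and Mir27b than 67.5%. Mir27a and Mir24-2 were further apart than 8.28%, against 8.12% at the main setting. Without hairpins sharing 22 bases, Mir23a and Mir27a were further apart than 82.6% of pairs, and Mir23b and Mir27b than 60.6%. No paired analysis was possible because the samples form 1 group. The depth limits statements on genes near the floor of 3 counts, and no cluster gene is near it.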
